A study of Mus musculus with 8 samples.

Results

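The heat shock and chaperone genes described here are 34 genes chosen by name, among 27554 in the count table. They comprise 3 HSP90 genes, 7 HSP70 genes, 3 HSP110 genes, 3 small heat shock protein genes, 2 genes of the mitochondrial chaperonin, 8 J-domain protein genes, 5 cochaperone genes, 2 heat shock factor genes and the polyubiquitin gene Ubb. They were taken by name and by no threshold on a measured value, but with earlier results of these data known. All 34 passed the filter on low counts, as did 11730 genes in all. They were followed in polyadenylated RNA of muscle stem cells sorted from mouse hindlimb muscle into a Myf5High and a Myf5Low fraction. All mice, of C57BL/6NTac background, carried the same pair of reporter alleles, Pax7tm3955(T2A-ZsGreen)Tac for the first and, for the other, Myf5tm3956(T2A-E2Crimson)Tac. ZsGreen reports Pax7, which encodes the transcription factor of muscle stem cells, and E2Crimson follows Myf5, a myogenic transcription factor, and both fractions were Pax7-positive. The 4 groups were female Myf5High, female Myf5Low, male Myf5High and male Myf5Low, with no treatment named in the labels, 2 libraries each and 4 mice pooled per library. The age of the mice was not given in the sources used here.

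Heat shock proteins keep other proteins folded. HSP70 binds exposed stretches of unfolded proteins, J-domain proteins deliver those clients and set off ATP hydrolysis, and HSP110 and Bag3 release them by nucleotide exchange, while HSP90 takes over late-folding clients such as kinases and steroid receptors. Small heat shock proteins hold unfolded proteins without ATP. Many of these genes are induced by heat shock factor, which binds inverted repeats of GAA, the heat shock element, and those of the endoplasmic reticulum are induced through the endoplasmic reticulum stress element. In muscle, Bag3, Hspb8 and Hspb1 are known for their part in the turnover of damaged contractile proteins.

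The labelled sort was checked on its own transcripts. Myf5 averaged 89.4 ± 40.7 CPM (SD, n = 4) in Myf5High against 36.4 ± 11.6 CPM (SD, n = 4) in Myf5Low, a log2 fold change of 1.19 (adjusted p 0.0284 in edgeR), where CPM is the count scaled to a common library size. Pax7 had 1300 ± 224 and 1274 ± 77.5 CPM (SD, n = 4 each; adjusted p 0.993 in edgeR). Gene counts per library ran from 3140361 to 4238427, so that 3 counts, taken as the limit of detection, stood for 0.672 to 0.986 CPM. Counting error was thus small for most of the 34 genes, and the spread between pools set the precision. Because the RNA is bulk RNA, more cells that express a gene and more RNA of it per cell cannot be told apart. All 8 libraries came from sorted cells, so levels in undisturbed muscle were not measured.

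The promoters of 5 genes on which the results below turn are shown first. They run from 250 bases before to 30 bases after the annotated start, from RefSeq on GRCm38.p6, and each is written 5′ to 3′ on the strand of the gene. In the first 4, capitals mark heat shock elements of at least 2 units, that is GAANNTTC or TTCNNGAA, 2 arrangements of the same inverted repeat that each read the same on both strands. In Hspa5, capitals mark the endoplasmic reticulum stress element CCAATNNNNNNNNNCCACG. Hspa1a and Hspa1b are shown because they are near-identical genes with different counts, Hsph1 and Hspb8 because they had the lowest adjusted p-values between the fractions, and Hspa5 because it stands for the endoplasmic reticulum genes.
Hspa1a, chr17:34972127-34972406, minus strand: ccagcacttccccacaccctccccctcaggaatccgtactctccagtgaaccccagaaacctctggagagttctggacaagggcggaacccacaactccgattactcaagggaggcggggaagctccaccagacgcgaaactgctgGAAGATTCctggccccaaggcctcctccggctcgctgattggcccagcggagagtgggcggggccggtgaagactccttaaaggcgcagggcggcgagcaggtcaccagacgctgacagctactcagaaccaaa
Hspa1b, chr17:34959209-34959488, minus strand: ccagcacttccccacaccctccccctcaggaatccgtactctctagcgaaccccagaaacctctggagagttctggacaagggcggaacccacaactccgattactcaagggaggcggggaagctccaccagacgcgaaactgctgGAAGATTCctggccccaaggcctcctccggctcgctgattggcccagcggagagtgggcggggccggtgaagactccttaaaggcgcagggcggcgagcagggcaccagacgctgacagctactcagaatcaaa
Hsph1, chr5:149636286-149636565, minus strand: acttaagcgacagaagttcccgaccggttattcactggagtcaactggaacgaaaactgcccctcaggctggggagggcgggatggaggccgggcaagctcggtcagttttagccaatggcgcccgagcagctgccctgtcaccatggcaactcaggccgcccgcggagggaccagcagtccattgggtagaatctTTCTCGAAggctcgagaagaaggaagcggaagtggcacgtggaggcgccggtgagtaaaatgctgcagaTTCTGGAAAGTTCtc
Hspb8, chr5:116422835-116423114, minus strand: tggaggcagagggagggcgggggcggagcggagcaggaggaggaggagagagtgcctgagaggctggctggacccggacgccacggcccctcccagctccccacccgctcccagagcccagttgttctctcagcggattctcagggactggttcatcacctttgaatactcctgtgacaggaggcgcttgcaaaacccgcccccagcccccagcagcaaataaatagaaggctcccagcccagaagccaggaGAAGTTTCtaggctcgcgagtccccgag
Hspa5, chr2:34771840-34772119, plus strand: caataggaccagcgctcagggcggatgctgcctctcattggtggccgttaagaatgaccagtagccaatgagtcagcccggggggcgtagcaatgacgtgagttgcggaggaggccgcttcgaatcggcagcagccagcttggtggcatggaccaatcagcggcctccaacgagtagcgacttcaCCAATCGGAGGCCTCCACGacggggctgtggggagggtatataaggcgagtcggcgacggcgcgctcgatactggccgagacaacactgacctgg
The Hspa1a and Hspa1b windows differed at 4 of 280 bases, and both had 1 element of 2 units, GAAGATTC, at the same place, from -104 to -97 relative to the start. In Hsph1 the 13 bases TTCTGGAAAGTTC after the start make 3 units, since 2 elements of 2 units overlap there. In Hspb8 the element lay just after the start, from 3 to 10, and in Hspa5 the stress element lay from -65 to -47.

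Over all the genes, 27 of the 34 had a window in the RefSeq promoter table, here taken to 50 bases after the start. Heat shock elements of 3 units, GAANNTTCNNGAA or TTCNNGAANNTTC, were found in 5 of the 27 (18.5%), namely Hspd1, Hspe1, Hsph1, Dnajb6 and Chordc1. Of all 27025 genes in that table, 0.662% had one. Elements of 2 units were found in 13 (48.1%), against 17% of all genes, and these 13 include the 5. The endoplasmic reticulum stress element, searched on both strands, was found in 3 (11.1%), against 0.137% of all genes. The 3 were Hspa5, Hsp90b1, which encodes the endoplasmic reticulum HSP90, and Dnajc3, a J-domain protein of that compartment. Hspd1 and Hspe1 are divergent neighbours on chromosome 1, and their windows share the same elements. Only exact matches to the letters given were counted, so elements that depart from them would be missed. These matches describe the letters in the windows and do not show binding.

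The 34 genes took 2.50% to 3.64% of gene counts. Their summed level was 36943 and 32120 CPM in the female Myf5High libraries, 29471 and 39460 CPM in male Myf5High, 33766 and 22528 CPM in female Myf5Low, and 28999 and 26049 CPM in male Myf5Low. The fractions overlapped in this sum, with female Myf5Low replicate 2 the lowest and male Myf5High replicate 2 the highest. As a share of gene counts, female Myf5High replicate 1 was the highest (3.64%), ahead of male Myf5High replicate 2 (3.45%). Of the 34 genes, 6 averaged at least 1000 CPM, 15 were between 100 and 1000 CPM, and 13 were below 100 CPM. The level per kilobase of exon was highest for Hsp90ab1, the constitutive cytosolic HSP90, with a mean of 4765 CPM per kb. It was followed by Hspa1a (998 CPM per kb), Hspa5 (779), Dnajb1 (591), Hsp90aa1 (515) and Hspb1 (456). The lowest mean was that of the J-domain gene Dnajb5, at 0.872 CPM per kb.

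**Figure D1:**
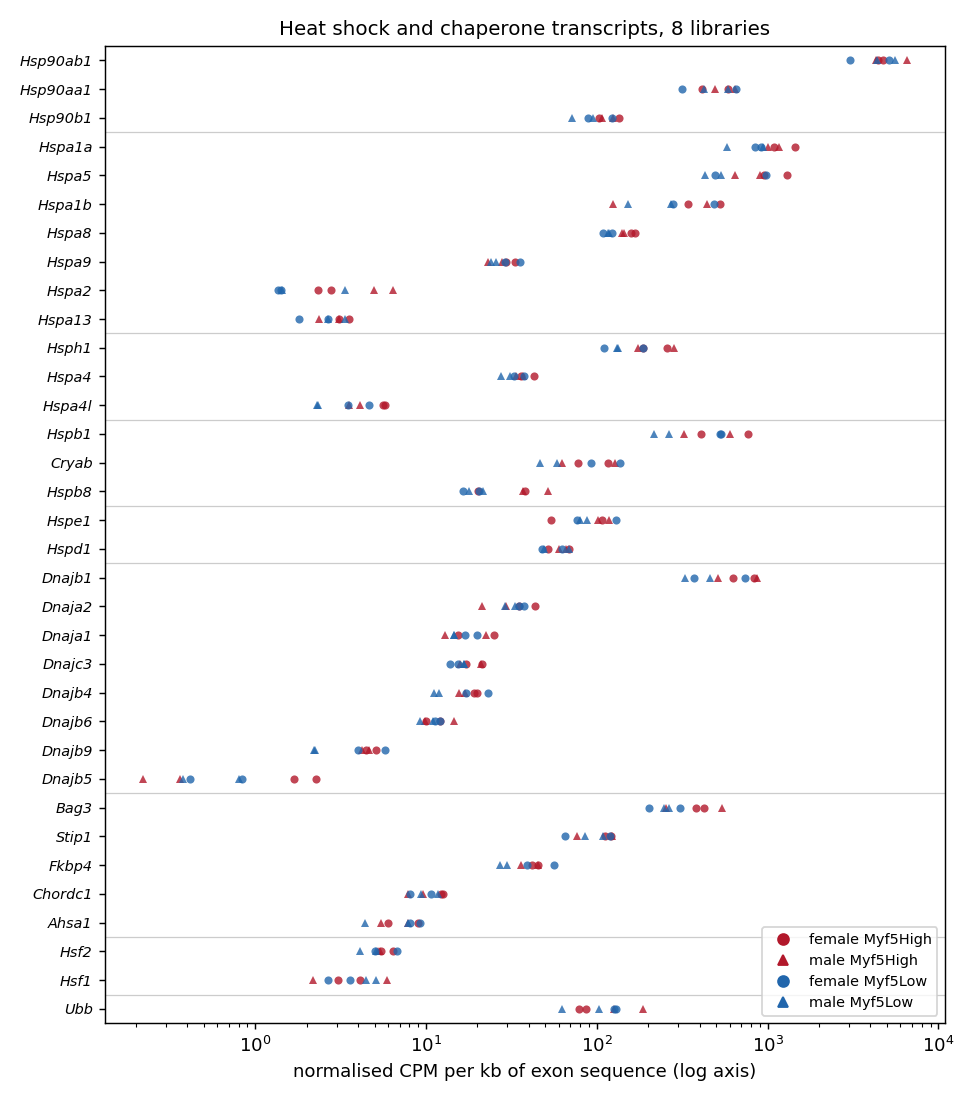
Normalised CPM per kb of exon sequence (log axis) of each of the 34 genes in each of the 8 libraries, grouped by role, with circles for female and triangles for male, red for Myf5High and blue for Myf5Low. Hsp90ab1 lies above all others in each library, and for most genes the red and blue symbols overlap.

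Across the libraries, the 34 genes did not all have the same order. Female Myf5High replicate 1 held the highest value of 8 of the genes and the lowest of 0. Male Myf5Low replicate 2 held the highest of 0 and the lowest of 8, and female Myf5Low replicate 2 held the highest of 5 and the lowest of 8. High and low values of the 34 were thus spread over several libraries, with the low ones mostly in Myf5Low. The same was not counted over all genes, so this order cannot be called particular to the 34.

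The comparison of Myf5High with Myf5Low asked whether cells sorted for bright or dim Myf5 reporter signal differ in these genes. None of the 34 passed an adjusted p of 0.05 (edgeR quasi-likelihood test with Benjamini-Hochberg adjustment), while 1.2% of all genes tested did. At an unadjusted p under 0.05, 10 of the 34 (29.4%) were higher in Myf5High and 0 were lower, against 4.53% higher and 4.83% lower among all genes tested. These were the HSP70 genes Hspa1a, Hspa2, Hspa5 and Hspa8, the HSP110 genes Hsph1 and Hspa4l, the small heat shock protein genes Hspb1 and Hspb8, the J-domain gene Dnajb1 and the cochaperone gene Bag3. The log2 fold change was above 0 in 30 of 34 (88.2%), against 48.1% of all genes, and its median was 0.22, against -0.02. The genes of a chaperone network can vary together between pools, so these counts are not those of 34 independent genes.

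The libraries of the fractions were also set side by side by sex and pool number. The labels give both fractions of a sex the same pool numbers but do not state that these shared mice, and the pairs are taken here to share only a number. In these number-matched pairs, 10 of the 34 (29.4%) had more CPM in Myf5High in 4 of 4, against 7.51% of all genes tested. None had less in 4 of 4 pairs, against 8.76%. The 10 were Hsp90b1, Hspa1a, Hspa2, Hspa4l, Hspa5, Hspa8, Hspb8, Hsph1, Dnajb1 and Bag3. Highly expressed genes leaned the same way to a lesser degree. Among the 1490 genes averaging 100 CPM or more, 10.3% were higher at an unadjusted p under 0.05 and 13.8% had more in 4 of 4 pairs, against 33.3% and 33.3% of the 21 chaperone genes at that level.

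**Figure D2:**
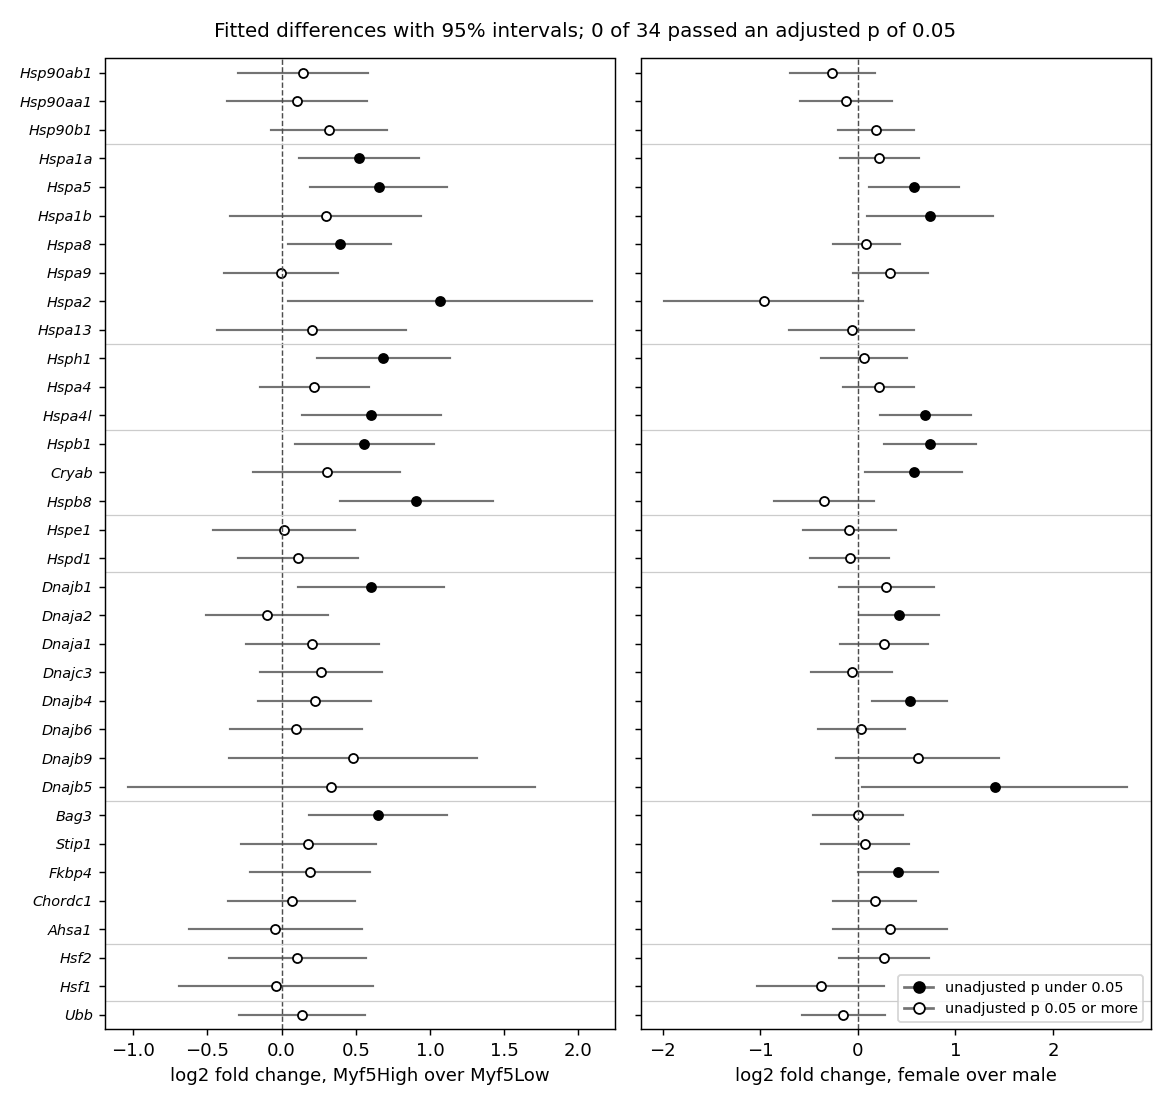
Fitted log2 fold change with its 95% interval for each of the 34 genes, for Myf5High over Myf5Low on the left and female over male on the right, with filled points at an unadjusted p under 0.05. Most points lie right of 0 in both panels (30 and 24 of 34), and 0 of 34 passed after adjustment in either.

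The count of 10 rested in part on single libraries. It was 5 without female Myf5High replicate 1 (2.91% of all genes higher in that fit) and 5 without male Myf5Low replicate 1 (3.44%). The number that passed after adjustment was 2 without male Myf5High replicate 1 (Hsph1 and Bag3), 1 without male Myf5High replicate 2 (Hspb8) and 1 without female Myf5Low replicate 1 (Hspa5), and 0 in the 5 other fits that left out 1 library. In those 3 fits 1.5%, 1.94% and 1.11% of all genes passed. For 20 of the 34 genes the log2 fold change kept its sign in all 8 of these fits, and for 14 it changed sign in at least 1 of them. The 14 were Hsp90ab1, Hsp90aa1, Hspa1b, Hspa9, Hspd1, Hspe1, Dnaja1, Dnaja2, Dnajb6, Hsf1, Chordc1, Stip1, Ahsa1 and Ubb, and none of the 10 was among them. In the fit of all libraries, 24 had a 95% interval that stayed within a 2-fold difference in either direction.

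Among the HSP90 genes, Hsp90ab1 had 13320 and 14202 CPM in female Myf5High, 13004 and 19514 CPM in male Myf5High, 15364 and 9129 CPM in female Myf5Low, and 16674 and 13109 CPM in male Myf5Low. In each library it was among the 6 most abundant genes, ranking between 2 and 6. Its fractions overlapped, and the log2 fold change was 0.15 (standard error 0.209, 95% interval -0.29 to 0.59, adjusted p 0.927 in edgeR), which turned to -0.015 without male Myf5High replicate 2 and to -0.016 without female Myf5Low replicate 2. Hsp90aa1, the stress-inducible cytosolic HSP90, ran from 1245 to 2562 CPM with a log2 fold change of 0.10 (adjusted p 0.959 in edgeR). That value ran from -0.11 without female Myf5Low replicate 2 to 0.41 without female Myf5Low replicate 1. Per kilobase, Hsp90ab1 exceeded Hsp90aa1 by 7.58 to 11.5 times in the 8 libraries. Of the 50-base windows of Hsp90aa1, 58.5% also occur in other annotated genes, more in Gm12346 than in any other, against 4.49% of those of Hsp90ab1, so the count of Hsp90aa1 and this ratio are uncertain. Hsp90b1 had a log2 fold change of 0.32 (standard error 0.185, adjusted p 0.674 in edgeR), and 0.21 without female Myf5High replicate 1. The cytosolic pair thus differed little between the fractions relative to its spread.

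Hspa1a and Hspa1b, neighbouring genes on chromosome 17 that encode the stress-inducible HSP70, could not be counted apart with certainty. Their annotated genes lie 9951 bases apart, and 58.8% of the 50-base windows of the Hspa1a transcript also occur in Hspa1b, while 62.3% of those of Hspa1b occur in Hspa1a. Hspa1a had 4301 and 3231 CPM in female Myf5High, 2984 and 3459 CPM in male Myf5High, 2512 and 2713 CPM in female Myf5Low, and 1723 and 2776 CPM in male Myf5Low. All Myf5High libraries lay above all Myf5Low libraries, which was also so for Hspa8 and for 2.36% of all genes tested. The log2 fold change of Hspa1a was 0.52 (standard error 0.193, 95% interval 0.12 to 0.93, adjusted p 0.32 in edgeR).

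Hspa1b varied more between libraries. It had 1477 and 959 CPM in female Myf5High, 1232 and 347 CPM in male Myf5High, 783 and 1369 CPM in female Myf5Low, and 427 and 757 CPM in male Myf5Low. Its fractions overlapped and 2 of 4 number-matched pairs had more in Myf5High, with a log2 fold change of 0.30 (standard error 0.306, 95% interval -0.34 to 0.94, adjusted p 0.888 in edgeR). It turned to -0.295 without male Myf5High replicate 1. The interval contains the value of Hspa1a, and the difference between the genes was not tested. The ratio of Hspa1a to Hspa1b per kilobase had a median of 3.11 and ran from 1.87 in female Myf5Low replicate 2 to 9.42 in male Myf5High replicate 2, so that 1 library stood apart from the others, whose highest ratio was 3.81. The sum of the pair, a quantity added after the data were seen, was 4497 ± 874 CPM (SD, n = 4) in Myf5High against 3265 ± 813 CPM (SD, n = 4) in Myf5Low. Its log2 fold change was 0.47 (standard error 0.198, adjusted p 0.437 in edgeR).

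**Figure D3:**
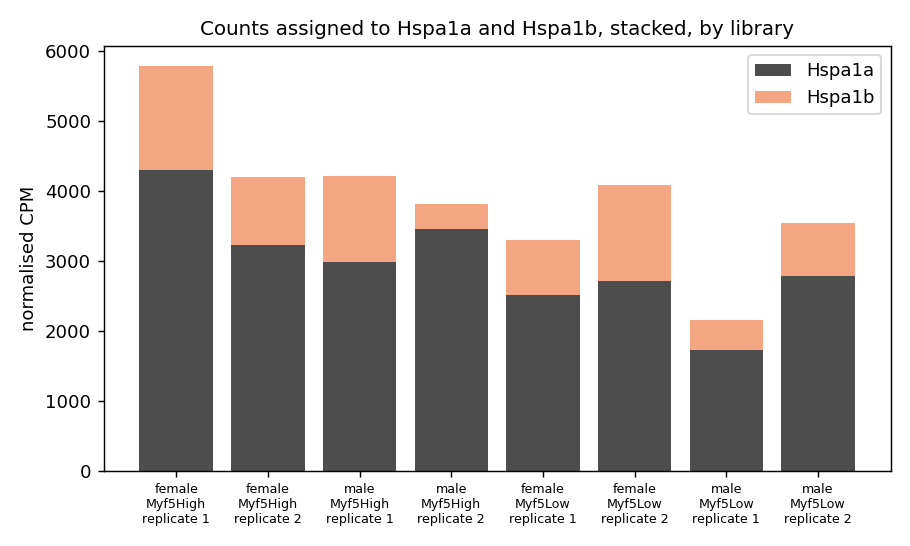
Normalised CPM assigned to Hspa1a (dark) and Hspa1b (light), stacked, in each of the 8 libraries. The share of Hspa1b is smallest in male Myf5High replicate 2, and the summed height is lowest in male Myf5Low replicate 1, at 2150 CPM.

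The other HSP70 genes had widely different levels. Hspa5, which encodes BiP, the HSP70 of the endoplasmic reticulum, had 5494 and 4052 CPM in female Myf5High, 2730 and 3807 CPM in male Myf5High, 4122 and 2070 CPM in female Myf5Low, and 2248 and 1823 CPM in male Myf5Low. Every number-matched pair had more in Myf5High, but female Myf5Low replicate 1 exceeded 3 of the 4 Myf5High libraries. Its log2 fold change was 0.65 (standard error 0.22, 95% interval 0.19 to 1.12, adjusted p 0.244 in edgeR). Hspa8, the constitutive HSP70, averaged 656 ± 52.4 CPM (SD, n = 4) in Myf5High against 499.5 ± 26.4 CPM (SD, n = 4) in Myf5Low, a log2 fold change of 0.39 (standard error 0.164, adjusted p 0.424 in edgeR). Hspa8 shares 74.8% of its 50-base windows with other annotated genes, more with the pseudogene Gm15459 than with any other.

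Hspa2, an HSP70 gene best known from male germ cells, was scarce. It had 6.14 and 7.38 CPM in female Myf5High, 17.1 and 13.2 CPM in male Myf5High, 3.57 and 3.76 CPM in female Myf5Low, and 3.81 and 8.84 CPM in male Myf5Low. Both male Myf5High libraries exceeded all 6 others, and each pair had more in Myf5High, with a log2 fold change of 1.07 (standard error 0.487, 95% interval 0.04 to 2.09, adjusted p 0.501 in edgeR). Hspa9, the mitochondrial HSP70, had 122 ± 17.9 and 123 ± 21.7 CPM in Myf5High and Myf5Low (SD, n = 4 each), which gave a log2 fold change of -0.005 with a 95% interval of -0.39 to 0.38. Hspa13, a microsomal HSP70-like protein, ran from 12.4 to 24.2 CPM.

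The HSP110 genes, which exchange the nucleotide of HSP70, had positive differences in all 3 cases. Hsph1 had 1869 and 1352 CPM in female Myf5High, 1266 and 2054 CPM in male Myf5High, 1357 and 796 CPM in female Myf5Low, and 951 and 966 CPM in male Myf5Low. Each pair had more in Myf5High, with a log2 fold change of 0.69 (standard error 0.212, 95% interval 0.24 to 1.13, adjusted p 0.18 in edgeR). Only female Myf5Low replicate 1 overlapped the Myf5High range. Hspa4l had 68.2 and 66.5 CPM in female Myf5High, 41.5 and 48.7 CPM in male Myf5High, 40.9 and 54.8 CPM in female Myf5Low, and 27.6 and 27.2 CPM in male Myf5Low. Its log2 fold change between the fractions was 0.60 (standard error 0.223, adjusted p 0.323 in edgeR). Hspa4 ranged from 152 to 237 CPM, with a log2 fold change of 0.22 (adjusted p 0.818 in edgeR).

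Of the small heat shock protein genes, Hspb8 had the lowest adjusted p of all 34 genes. It had 73.7 and 39.5 CPM in female Myf5High, 100.4 and 71.7 CPM in male Myf5High, 39.8 and 32.2 CPM in female Myf5Low, and 34.9 and 41.8 CPM in male Myf5Low. The Myf5Low libraries lay close together, and 3 of the 4 Myf5High libraries lay above them all, while female Myf5High replicate 2 lay within their range. The log2 fold change was 0.91 (standard error 0.246, 95% interval 0.39 to 1.42, adjusted p 0.102 in edgeR), and 0.64 without female Myf5High replicate 1. With DESeq2, Hspb8 alone of the 34 passed, at an adjusted p of 0.0446, against 1.99% of all genes. Its partner Bag3, which carries clients of HSP70 and Hspb8 to autophagy, had 1086 and 973 CPM in female Myf5High, 650.1 and 1393 CPM in male Myf5High, 791 and 515 CPM in female Myf5Low, and 636 and 676 CPM in male Myf5Low. Each pair had more Bag3 in Myf5High, though by little in male pair 1, for a log2 fold change of 0.65 (standard error 0.221, adjusted p 0.257 in edgeR). Without male Myf5High replicate 2 it was 0.32.

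Hspb1, which encodes HSP25, had 794 and 421 CPM in female Myf5High, 624 and 336 CPM in male Myf5High, 547 and 542 CPM in female Myf5Low, and 223 and 272 CPM in male Myf5Low. In 3 of 4 pairs Myf5High had more, with a log2 fold change of 0.56 (standard error 0.224, adjusted p 0.389 in edgeR), and 0.28 without female Myf5High replicate 1. About 51.6% of its 50-base windows also occur in other annotated genes, more in the pseudogene Hsp25-ps1 than in any other. Cryab, which encodes alpha B-crystallin, ranged from 69.0 to 203 CPM, with a log2 fold change of 0.30 (adjusted p 0.813 in edgeR), and 0.00047 without male Myf5High replicate 1.

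**Figure D4:**
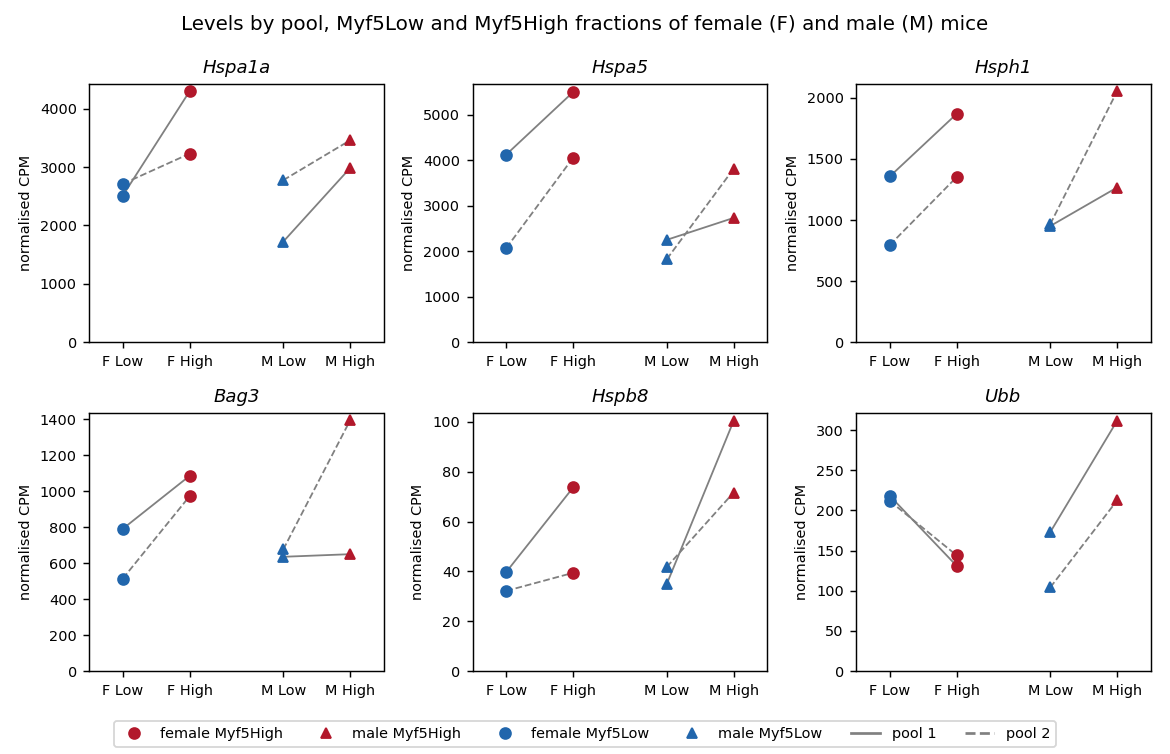
Normalised CPM of Hspa1a, Hspa5, Hsph1, Bag3, Hspb8 and Ubb in the Myf5Low and Myf5High libraries joined by sex and pool number (F for female, M for male, solid lines for number 1, dashed lines for number 2). For the first 5 genes each line goes up from Low to High, by little for Bag3 in male pair 1, and for Ubb the female lines go down and the male lines go up.

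The J-domain genes were led by Dnajb1, the heat-inducible partner of HSP70 and HSP110 in dissolving protein aggregates. It had 2676 and 1998 CPM in female Myf5High, 1632 and 2776 CPM in male Myf5High, 2370 and 1187 CPM in female Myf5Low, and 1050 and 1467 CPM in male Myf5Low. The fractions overlapped through female Myf5Low replicate 1, and each pair had more in Myf5High, with a log2 fold change of 0.60 (standard error 0.234, adjusted p 0.375 in edgeR), and 0.38 without male Myf5High replicate 2. The other 7 J-domain genes had log2 fold changes between -0.10 (Dnaja2) and 0.48 (Dnajb9). The mitochondrial chaperonin showed little difference between the fractions, with log2 fold changes of 0.11 for Hspd1, its HSP60 ring subunit, and 0.02 for Hspe1, its HSP10 lid. Hspe1 had 157 and 79.7 CPM in female Myf5High, 150.1 and 175 CPM in male Myf5High, 189.8 and 112 CPM in female Myf5Low, and 118 and 129.7 CPM in male Myf5Low. The genes Hspd1 and Hspe1 overlap in the annotation on opposite strands, and the strand setting of the counting was not given. Each also shares 44.8% of its 50-base windows with other annotated genes.

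The HSP90 cochaperones Stip1, which links HSP70 to HSP90, Fkbp4, an immunophilin, Chordc1 and Ahsa1, which speeds the ATP hydrolysis of HSP90, had log2 fold changes from -0.04 to 0.19. Of the heat shock factors, Hsf2 had 61.4 and 52.2 CPM in female Myf5High, 51.6 and 49.97 CPM in male Myf5High, 65.1 and 48.5 CPM in female Myf5Low, and 39.2 and 48.7 CPM in male Myf5Low, for a log2 fold change of 0.10 (standard error 0.22, adjusted p 0.958 in edgeR), and 0.0043 without female Myf5Low replicate 2. Hsf1, the main factor of the heat shock response, is regulated mostly as a protein, and its transcript had 27.0 ± 11.3 and 28.1 ± 7.47 CPM in Myf5High and Myf5Low (SD, n = 4 each), with a log2 fold change of -0.03 (95% interval -0.69 to 0.62, adjusted p 0.993 in edgeR). It was -0.48 without male Myf5High replicate 2 and 0.25 without male Myf5High replicate 1.

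The differences were also read by motif. The 5 genes with a heat shock element of 3 units had a median log2 fold change of 0.10 between the fractions, from 0.02 to 0.69, and the 22 with a window but no such element had a median of 0.31. With elements of 2 units the medians were 0.22 for the 13 with and 0.29 for the 14 without. The 3 genes with an endoplasmic reticulum stress element had log2 fold changes of 0.65 (Hspa5), 0.32 (Hsp90b1) and 0.27 (Dnajc3, 0.15 without male Myf5High replicate 1). Genes without an exact match may still hold elements that depart from these letters. The values of genes with and without a match were not tested against each other.

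The comparison of female with male asked whether the sexes differ, and it rests on 4 libraries of 2 pool numbers per sex. Again 0 of the 34 passed an adjusted p of 0.05 (edgeR), while 1.65% of all genes tested did, and DESeq2 passed 1 (Hspb1, adjusted p 0.0493), against 3.16% of all genes. At an unadjusted p under 0.05, 9 of 34 (26.5%) were higher in females and 0 were higher in males, against 7.05% and 6.85% of all genes. By that rule, 28.6% of the 21 chaperone genes averaging 100 CPM or more were higher in females. Of all 1490 genes at that level, 11.6% were. The 9 were Hspa1b, Hspa5, Hspa4l, Hspb1, Cryab, Dnaja2, Dnajb4, Dnajb5 and Fkbp4, and 3 of them (Hspa4l, Hspa5 and Hspb1) were also among the 10 between the fractions. The 9 became 2 without female Myf5High replicate 1, 5 without male Myf5High replicate 2, 5 without female Myf5Low replicate 2 and 4 without male Myf5Low replicate 1. In those 4 fits 4.23%, 7.07%, 4.19% and 4.6% of all genes were higher in females. After adjustment 3 passed without male Myf5High replicate 1 (Hspa1b, Hspb1 and Cryab), where 4.48% of all genes passed. The median log2 fold change was 0.20, against -0.02 over all genes, but 0.052 without female Myf5Low replicate 1 and 0.092 without female Myf5High replicate 1. Of the 34, 24 (70.6%) were above 0, against 48.7% of all genes, and 22 kept their sign in all 8 fits that left out 1 library. That test counts each library as 1 sample, so its p-values are too small if same-numbered libraries share mice. With the counts of each pool number summed, 2 sums per sex, 0 of the 34 passed, against 1.81% of all genes (edgeR, lowest adjusted p 0.0736, for Hspa1b). At an unadjusted p under 0.05, 7 were then higher in females (Hspa1b, Hspa4l, Hspa5, Hspb1, Cryab, Dnajb4 and Dnajb5) and 1 was lower (Hspa2), against 7.21% and 6.84% of all genes.

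In values, Hspb1 averaged 576 ± 157 CPM (SD, n = 4) in females against 364 ± 180 CPM (SD, n = 4) in males, a log2 fold change of 0.74 (standard error 0.225, 95% interval 0.27 to 1.21, adjusted p 0.118 in edgeR). It was 0.46 without female Myf5High replicate 1. The sexes overlapped through male Myf5High replicate 1. Hspa4l had 57.6 ± 12.6 and 36.2 ± 10.6 CPM (SD, n = 4 each), which gave a log2 fold change of 0.69 (standard error 0.224, adjusted p 0.149 in edgeR). Its highest values were those of female Myf5High and its lowest those of male Myf5Low. Dnajb4, a heat-inducible J-domain gene, had 174 ± 21.8 and 122 ± 24.7 CPM (SD, n = 4 each), and all female libraries lay above all male ones, as they did for Hspa9 and Dnaja2 and for 3.59% of all genes tested. The log2 fold change of Dnajb4 was 0.53 (standard error 0.181, adjusted p 0.175 in edgeR).

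Hspa1b had a log2 fold change of 0.74 between the sexes (standard error 0.307, adjusted p 0.276 in edgeR), which was 1.34 without male Myf5High replicate 1 and 0.42 without male Myf5High replicate 2, and the summed Hspa1a and Hspa1b had one of 0.34 (standard error 0.198, adjusted p 0.465 in edgeR). Hspa5 had 0.58 (standard error 0.22, adjusted p 0.234 in edgeR), and 0.27 without female Myf5Low replicate 1. The scarce Dnajb5 had 10.03 and 13.5 CPM in female Myf5High, 2.161 and 1.32 CPM in male Myf5High, 2.47 and 4.94 CPM in female Myf5Low, and 2.24 and 4.78 CPM in male Myf5Low. Its log2 fold change of 1.40 (standard error 0.647, adjusted p 0.338 in edgeR) came from the Myf5High libraries, since the Myf5Low libraries of the sexes overlapped. Dnajb9, a J-domain protein of the endoplasmic reticulum, had 11.3 and 13.0 CPM in female Myf5High, 10.8 and 11.8 CPM in male Myf5High, 10.2 and 14.6 CPM in female Myf5Low, and 5.60 and 5.73 CPM in male Myf5Low. Only male Myf5Low lay apart from the other groups, and the log2 fold change between the sexes was 0.61 (standard error 0.398, adjusted p 0.529 in edgeR). Hspa2 went the other way, with a log2 fold change of -0.97 (standard error 0.486, adjusted p 0.391 in edgeR), and -0.61 without male Myf5Low replicate 2.

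Within each sex, 0 of the 34 passed between the fractions by edgeR, against 0.332% of all genes in females and 0.171% in males. By DESeq2 0 passed as well, against 1.04% and 0.614%. At an unadjusted p under 0.05, females had 1 higher (Hspa8) and 1 lower (Ubb), and males had 8 higher and 0 lower, where 3.84% of all genes were higher and 3.52% lower in females, and 3.1% higher and 3.56% lower in males. The number higher changed in both sexes when some single libraries were left out. By DESeq2 at the same threshold, 4 were higher in females and 10 in males, against 4.07% and 3.15% of all genes. The 8 in males were Hspa4l, Hspa5, Hspb1, Hspb8, Hsph1, Dnajb1, Cryab and Ubb. The test of the difference between the sexes, the interaction, passed for 0 of the 34 and for 0% of all genes (edgeR; 533 genes at an unadjusted p under 0.05, and 2 genes by DESeq2, both outside the 34), so a difference between the sexes in this respect was not shown. At an unadjusted p under 0.05, 0 of the 34 had a higher difference in females and 2 (5.88%) a lower one (Ubb and Cryab), against 2.34% and 2.21% of all genes. The number lower was 3 without the filter on low counts (2.14% of all genes in that fit) and 1 with the pool number as a block (1.77%). DESeq2 gave 1 higher and 2 lower, against 2.54% and 2.22% of all genes. The count also moved when some single libraries were left out. In 5 of the 34 both number-matched pairs of one sex lay on the other side of 0 from both pairs of the other sex. This share, 14.7%, was near the 10.9% of all genes. The 3 small heat shock protein genes had log2 fold changes in males of 1.17 for Hspb8, 0.96 for Hspb1 and 0.86 for Cryab, and in females of 0.65, 0.16 and -0.25.

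Ubb, a polyubiquitin gene that responds to heat, had the lowest p in that test. It had 131 and 144 CPM in female Myf5High, 311 and 212 CPM in male Myf5High, 218 and 212 CPM in female Myf5Low, and 173 and 104 CPM in male Myf5Low. Both female Myf5High libraries lay below both female Myf5Low libraries, and both male Myf5High libraries lay above both male Myf5Low libraries. The log2 fold change was -0.64 in females (standard error 0.285, adjusted p 0.616 in edgeR) and 0.92 in males (standard error 0.286, adjusted p 0.351 in edgeR), and the interaction was -1.56 (standard error 0.404, 95% interval -2.41 to -0.71, adjusted p 0.917 in edgeR). The male value was 0.596 without male Myf5Low replicate 2, and the interaction lay between -1.99 and -1.24 when each library in turn was left out. Of the 50-base windows of Ubb, 61% also occur in other annotated genes, nearly all of them in Gm1821, so its count is uncertain.

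Other genes of protein folding were read from further lists. Of 13 tested genes of the cytosolic chaperonin TRiC and prefoldin, 0 passed between the fractions and 1 was higher in females, the TRiC subunit gene Cct4 (log2 fold change 1.02, SE 0.249, adjusted p 0.0476 in edgeR), against 1.65% of all genes called in either direction between the sexes. None of 17 other cytosolic cochaperone genes, 22 other endoplasmic reticulum stress genes, 10 other mitochondrial chaperone and protease genes, 4 ubiquitin and autophagy receptor genes and 4 muscle small heat shock protein and myosin chaperone genes passed in either comparison (edgeR). At an unadjusted p under 0.05 between the fractions, these 5 lists together had 0 higher genes, and 1 of the other cytosolic cochaperones and 2 of the muscle genes were lower, against 4.53% higher and 4.83% lower among all genes. The median log2 fold change between the fractions was 0.21 in the endoplasmic reticulum list, with 18 of 22 above 0, and -0.02 in the TRiC and prefoldin list, with 3 of 13 above 0, against -0.02 and 48.1% above 0 over all genes. Between the sexes, at an unadjusted p under 0.05, 4 of 13 TRiC and prefoldin genes were higher in females. So were 4 of 22 endoplasmic reticulum, 1 of 17 cytosolic, 1 of 10 mitochondrial, 0 of 4 ubiquitin and 0 of 4 muscle genes. None was lower in any list, and 7.05% of all genes were higher and 6.85% lower. The medians were 0.18, 0.20, 0.02, 0.18, 0.25 and -0.25 in the same order, against -0.02 over all genes.

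Immediate early genes, which are transcribed within minutes of a stimulus, had sums that ordered the libraries much as the sum of the 34 genes did. The list summed to 38132 and 29575 CPM in female Myf5High, 21204 and 41892 CPM in male Myf5High, 31502 and 20144 CPM in female Myf5Low, and 28647 and 22359 CPM in male Myf5Low. In normalised CPM, the 4 libraries with the highest sums were the same for both lists and in the same order, led by male Myf5High replicate 2. Female Myf5Low replicate 2 was lowest in both. Much of the sum of the 34 genes was 1 gene, Hsp90ab1, with a mean of 14289 CPM where the sum had a mean of 31167 CPM. The order of the sums is thus not that of each of the 34 genes. Of 19 immediate early genes tested, 0 passed between the fractions, 6 were higher and 0 lower at an unadjusted p under 0.05 (4.53% and 4.83% of all genes), and the median log2 fold change was 0.37, against -0.02 over all genes. Between the sexes 3 of the 19 passed, against 1.65% of all genes tested (0.733% higher in females). All 3 were higher in females: Nr4a1 (log2 fold change 1.47), Dusp1 (0.98) and Btg2 (0.91), with adjusted p-values in edgeR of 0.0115, 0.0109 and 0.0105. Their part in the differences of the chaperone genes was not tested.

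Some markers of other cells differed between the fractions, where 1.2% of all genes tested passed. The 8 markers of committed and differentiating myogenic cells summed to 141 to 374 CPM in Myf5High and 377 to 899.7 CPM in Myf5Low, with Mymk at 0 in all Myf5High libraries and with Myog and Mymk lower (2 of 8 passed). The 8 immune markers summed to 17.1 to 38.2 CPM in Myf5High and 44.0 to 90.3 CPM in Myf5Low, with C1qa lower (1 of 6 tested passed). The mural cell markers summed to 362 to 502 and 382 to 778 CPM (Acta2 lower, 1 of 8). The endothelial ones summed to 215 to 406 and 265 to 581 CPM (0 of 8). The fibro-adipogenic ones summed to 877 to 1556 and 731 to 914 CPM (Dpt higher, 1 of 7). Members of each list went both ways. At an unadjusted p under 0.05, 1 mural marker was higher and 3 lower. By that rule 1 endothelial marker was higher and 2 lower, and 1 fibro-adipogenic marker was higher and 1 lower. The 8 glial markers summed to 799.9 to 1040 CPM in Myf5High and 565 to 788 CPM in Myf5Low (0 of 7 tested passed), but most of that sum was Ncam1, with 684 to 990.4 and 477 to 670.1 CPM. The 7 others summed to 47.9 to 116 and 70.3 to 167 CPM. Of the 7 tested, Ncam1 among them, 1 had a log2 fold change above 0, and the median was -0.82. Over all genes 48.1% were above 0, and the median was -0.02. The 8 muscle stem cell markers summed to 6294 to 7917 CPM in Myf5High and 5945 to 6910 CPM in Myf5Low. Of these, 2 of 8 passed, both higher: Calcr and Myf5, whose reporter was used for the sort. The log2 fold change was above 0 in 6 of the 8. At an unadjusted p under 0.05, 4 of the 8 were higher and 1 was lower, against 4.53% and 4.83% of all genes. Between the sexes, 1 of these markers passed, Myh3, lower in females. Its list of 8 committed and differentiating markers had no common direction, with 4 log2 fold changes above 0 and a median of 0.07. At an unadjusted p under 0.05, 2 of these 8 were higher in females and 2 lower. By the same rule 2 of 6 immune markers were higher and 0 lower, and 1 of 8 mural markers was higher and 1 lower. Of the 8 muscle stem cell markers, 1 was higher and 0 lower. The endothelial markers summed to 215 to 347 CPM in females and 306 to 581 CPM in males, with 1 of 8 log2 fold changes above 0, a median of -0.69 and 4 lower at an unadjusted p under 0.05. The glial median was -0.77 (1 of 7 above 0) and the fibro-adipogenic one -0.39 (1 of 7 above 0, 2 lower at an unadjusted p under 0.05). Over all genes tested between the sexes, 48.7% were above 0 and 1.65% passed. At an unadjusted p under 0.05, 7.05% were higher in females and 6.85% lower. The part of other cells in the differences of the 34 genes was not tested.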

How the data were processed

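Polyadenylated RNA was sequenced as single reads, per the labels. For 8 libraries, the deposited table holds raw counts of reads in each Ensembl gene, without normalisation by the authors. The submitters' processing notes name HTSeq and GRCm38, and the aligner, annotation and strand setting were not given in the sources used here. Reads assigned to no gene, 42.2% to 45.5% of each library's total in the table, were left out of library sizes. Of 27554 genes, 27441 matched GENCODE M21, which gave symbols, exon lengths and coordinates.

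Counts were analysed with edgeR 4.0.16 in R 4.3.3, with filterByExpr (minimum count 10, minimum total count 15), TMM scaling, 1 mean per group over 8 libraries and the two-sided quasi-likelihood test (glmQLFit, glmQLFTest). P-values were adjusted by Benjamini-Hochberg over 11730 genes, with a threshold of 0.05, in 5 contrasts. Standard errors were derived from each log2 fold change and F value.

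Libraries of both fractions share a sex and pool number, but the labels do not state shared mice, so the main fit has no block. Treating both fractions of a pool as independent makes p-values between the sexes too small if they share mice.

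All 34 genes could be named. Values in every library were given for genes that passed a test, for the 6 with the largest log2 fold change between the fractions or between the sexes (mean of at least 5 CPM), and for the most abundant gene per kb of each role. Of the other lists, genes that passed could be named, and Ncam1 was also named because it made up most of the glial sum. The genes and lists were chosen with earlier results of these data known. Fits were tested on simulated data. Other settings tried were RLE scaling, no filter, a mean of at least 50 counts, DESeq2 1.42.0, an additive model, fits of 1 sex, summed counts of each pool between the sexes, the pool block and leaving out each library. Motifs were searched in RefSeq promoter windows of GRCm38.p6, and shared 50-base windows in GENCODE M21 transcripts.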

Additional observations from a re-analysis of the deposited data

Results flagged for a closer look

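In 5 of the 34 genes both female pairs of libraries with the same pool number differed one way between the fractions and both male pairs the other way. That is 14.7%, near the 10.9% of all genes tested, so the 34 do not stand out by this count. The female minus male difference in log2 fold change was 0.70 for Hspa13, -0.74 for Hspe1, 2.63 for Dnajb5, 0.67 for Chordc1 and -1.56 for Ubb. None passed the interaction test (edgeR adjusted p 0.917 for Ubb and 1.0 for the other 4). Dnajb5 had under 14 CPM in every library.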

How the results depend on the processing

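Between the fractions the number of genes called, 141, was 291 without the filter on low counts and 234 by DESeq2, and 82 to 243 when 1 library was left out (85 without female Myf5High replicate 1, 82 without female Myf5Low replicate 2, 243 without male Myf5High replicate 2). Between the sexes 194 became 477 and 371, and 82 to 558 (558 without male Myf5High replicate 1). In females 39 became 167, 112 and, in a fit of that sex, 77, and 9 to 117. In males 20 became 111, 72 and 2, and 8 to 74. For the interaction 0 became 14 and 2, and 0 to 8. Of the 34 genes, those called between the fractions went from 0 to 4 without the filter (Hspa5, Hspb8, Hsph1 and Bag3), 1 by DESeq2, and 0 to 2 with 1 library left out. Between the sexes they went from 0 to 2 (Hspa1b and Hspb1), 1, and 0 to 3, and in the other 3 contrasts they were 0 in all fits. The counts at an unadjusted p under 0.05 ran from 5 to 10 and from 2 to 9 with 1 library left out. Without the filter, 4 of the 34 were called between the fractions, against 1.83% of all genes tested in that fit. Between the sexes 2 of the 34 were, against 3%. The correlation of deviations between same-numbered libraries was 0.0275 in females and 0.00037 in males. With the pool number as a replicate block 136 genes and 0 of the 34 were called between the fractions (lowest edgeR adjusted p 0.134, for Hspb8), and the block changed no other call of the 34. The log2 fold change of Hsp90ab1 between the fractions reversed to -0.015 without male Myf5High replicate 2 and to -0.016 without female Myf5Low replicate 2, and lay between -0.016 and 0.36 with 1 library left out. For 22 pairs of a gene and a comparison, recomputed under each setting, 288 of 304 values kept direction and side of the threshold, 14 passed it only there and 2 reversed (Hsp90ab1). Over all 34 genes, 14 changed sign between the fractions and 12 between the sexes in at least 1 fit that left out 1 library. The causes were not tested. Depth limits the scarce genes, of which 4 averaged under 20 CPM.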
